A study of Mus musculus with 6 samples.

Results

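Fabp4, Lyve1, C1qa, Cd53 and Aif1 are expressed in blood vessel lining cells, in macrophages or in leukocytes at large, and were followed here in the pancreas of Sox4 mutant mouse embryos. They were chosen by their measured values in this same comparison together with their cell type, so their ratios are given as a description, without a test. All probes whose single gene symbol in the platform annotation is one of these 5 names were taken, which gave 7 probes of 21888 in the table, for 5 of its 11023 gene symbols: 1 each for Fabp4, C1qa and Cd53, and 2 each for Lyve1 and Aif1. All 7 were measured on at least 4 arrays, and 5 of them on all 6.

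The study compared the pancreas of homozygous Sox4-/- embryos, taken at embryonic day 12.5, with that of their wild-type littermates, to see which genes differ across the genome when this SoxC transcription factor is missing. Each of the 6 arrays carried both RNAs, the wild type in channel 1 and the mutant in channel 2. Arrays 1 and 2 are labelled as made from organs pooled into 2 groups before extraction, with amplified RNA. If the other arrays used those pools too, no separate embryos stand behind the 6 values, and each p-value then measures only how repeat arrays scatter. The labels name no strain.

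Each deposited value is a log2 ratio of the channels. It is read as mutant over wild type, which is likely from the channel order and the titles but is not settled by a stated dye or direction. Every value below is centred on its array's median. "Under 0" therefore means likely lower in the RNA labelled knockout, relative to the typical probe on that array. A ratio carries no level, so genes cannot be ranked by abundance, and fewer cells of a type cannot be told apart from less RNA per cell.

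By embryonic day 12.5 the pancreatic bud is an epithelium wrapped in mesenchyme and threaded with vessels, and macrophages already live in it. Fabp4 is a small cytoplasmic carrier of fatty acids, known from fat cells but also made by capillary and venous endothelium and by macrophages. Lyve1 is a hyaluronan receptor of lymphatic endothelium, of embryonic veins and liver sinusoids, and of a subset of tissue macrophages. C1qa encodes a chain of C1q, the starter of the classical complement pathway, which is made mostly by macrophages. Cd53 is a tetraspanin carried by almost all leukocytes. Aif1, also called Iba1, is a calcium-binding, actin-bundling protein of macrophages and microglia.

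On the GRCm38.p6 assembly, in RefSeq's gene table, Fabp4 lies at chr3:10204342-10208616 and Cd53 at chr3:106758861-106790149. Lyve1 lies at chr7:110850607-110862953, C1qa at chr4:136895916-136898844 and Aif1 at chr17:35170986-35176083. All are protein-coding. Which part of each transcript the probes match was not analysed here.

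RefSeq's promoter table, on the same build, matched 2 of the 5 members, Cd53 and Aif1. They are shown as the members with an entry there, a gene of leukocytes at large and a macrophage gene. Each runs from 250 bases before the transcription start to 50 after it, on the minus strand, 5′ to 3′, at chr3:106790100-106790399 and chr17:35176003-35176302. Capitals mark a match to any of 5 motifs searched on both strands. The purine box bound by the macrophage factor PU.1 was searched as GAGGAAG, and the core bound by other ETS factors of endothelium was searched as CCGGAAG. The core bound by SOX factors such as Sox4 was searched in its usual form, AACAAT, and in a longer form, AACAAAG. The box bound by the general transcription machinery near many starts was searched as TATAAA.
Cd53: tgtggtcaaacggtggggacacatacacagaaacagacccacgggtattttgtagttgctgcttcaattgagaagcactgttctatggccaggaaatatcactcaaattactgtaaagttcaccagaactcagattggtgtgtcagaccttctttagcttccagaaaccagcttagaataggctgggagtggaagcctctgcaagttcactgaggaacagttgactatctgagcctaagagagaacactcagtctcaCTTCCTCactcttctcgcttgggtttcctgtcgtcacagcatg
Aif1: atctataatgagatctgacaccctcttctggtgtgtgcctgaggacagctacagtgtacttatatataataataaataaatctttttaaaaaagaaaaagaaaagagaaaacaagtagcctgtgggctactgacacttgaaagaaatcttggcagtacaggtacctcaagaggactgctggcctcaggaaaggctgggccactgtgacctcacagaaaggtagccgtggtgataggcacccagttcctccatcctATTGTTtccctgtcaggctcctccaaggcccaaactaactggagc

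The Cd53 window held GAGGAAG on its reverse strand, 7 bases past the start. The Aif1 window held AACAAT on its reverse strand, 5 bases past the start used for that window. That Aif1 start lies inside the gene span given above, not at the span's end. No motif overlapped another. Of 32851 promoter windows of this length, 13.6% held GAGGAAG, 8.9% CCGGAAG, 10.7% AACAAT, 5.9% AACAAAG and 13.6% TATAAA. A match describes letters only.

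Fabp4 had the furthest and among the tightest of the members' ratios. On arrays 1 to 6 its probe ZA-00026F24 read -1.18, -1.50, -1.40, -1.30, -1.31 and -1.36. All arrays were under 0 and lay close to each other, with a mean of -1.34 ± 0.11 (SD, n = 6), a 2.53-fold lower ratio. Its mean ranked 48 from the lowest of all 21247 tested probes, and 4.65% of them had an SD as small or smaller. The mean was -1.34 on arrays 1 and 2 and -1.34 on arrays 3 to 6, a split made because the label of arrays 3 to 6 does not repeat the preparation and because the 2 sets correlate poorly with each other. Of all tested probes, 12.26% had every measured array under 0, as Fabp4 had, and 10.17% had every one above 0.

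Lyve1 was under 0 at both probes, with unequal precision. Probe ZA-00031K11 read -0.73, -0.55, -0.82, -0.74, -0.75 and -0.86 on arrays 1 to 6, with a mean of -0.74 ± 0.11 (n = 6), a 1.67-fold lower ratio. Array 2 was the nearest to 0. The other probe, ZA-00029L07, had no value on array 3 and read -0.73, -0.80, -1.39, 0.39 and -2.73 on the others, with a mean of -1.05 ± 1.14 (n = 5), which moved to -0.64 without array 6 and to -1.41 without array 5. Of its 5 deposited ratios, 3 were quotients of whole numbers up to 20 (within 6e-04 in log2), as ratios of small whole-number intensities would be, against 1 of 6 at the tight probe and 22.6% over all tested probes. On arrays 1 and 2 both probes stood under 0. Their largest difference on any array was 1.87, on array 6.

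C1qa was under 0 on all arrays, a pattern of 12.26% of tested probes, and its ratio was smaller. Its probe ZA-00025I12 had a lowest value of -0.64, a median of -0.30 and a highest of -0.27, and a mean of -0.40 ± 0.175 (n = 6), a 1.32-fold lower ratio. Arrays 2 and 3, at -0.64 and -0.61, stood apart from the other 4, which lay between -0.30 and -0.27. C1qb, the chain that joins C1qa in the same protein, was at 0.06 ± 0.16 (n = 6).

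Cd53 was the only member above 0. Its probe PX-00630D01 read 0.85, 0.54, 0.67, 0.80 and 0.69 on arrays 1, 3, 4, 5 and 6, with a mean of 0.71 ± 0.12 (n = 5), a 1.63-fold higher ratio. On array 2 the deposited value was the table's ceiling, the log2 of a ratio of 100000, and it was treated as missing. Of its 5 values, 4 were quotients of whole numbers up to 20, and 6.39% of tested probes had a mean as high or higher. The 3 tested wells that touch its well on the source plate, whose position is read from the probe name, had means of 0.64, 0.70 and 0.58, close to that of Cd53. Its plate column had a median of 0.21 over 14 other probes, 12 of them above 0, against 0.03 over the 377 other wells of the plate. Its plate row had a median of 0.05 over 23 other probes, 14 of them above 0. The part of these plate values in the Cd53 ratio was not tested.

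Aif1 stayed near 0 at both probes. Probe ZX-00121C20 ranged from -0.27 to 0.03 with a median of -0.11 and a mean of -0.12 ± 0.13 (n = 6). Probe ZX-00122O23 ranged from -0.38 to 0.08 with a median of -0.06 and a mean of -0.11 ± 0.16 (n = 6). Each probe had 5 arrays under 0 and 1 above it, and the probes differed by at most 0.14 on any array. Without centring the means were -0.02 and -0.0025.

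**Figure D1:**
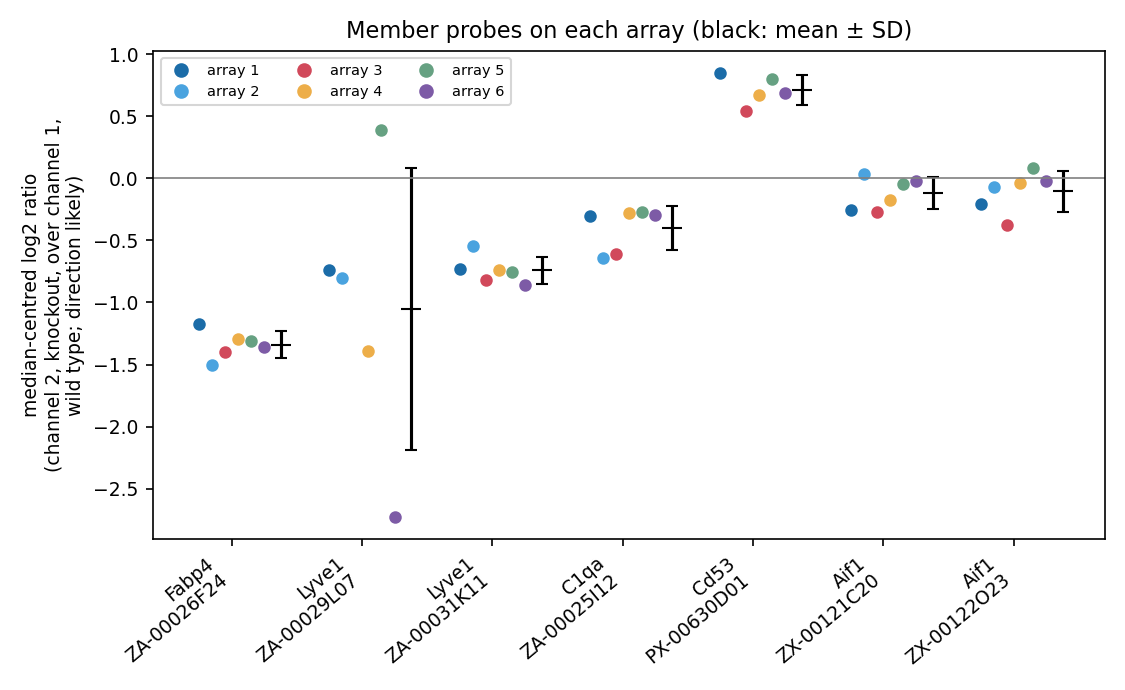
Median-centred log2 ratio (vertical axis, no unit) of each of the 7 member probes (horizontal axis), with a coloured point per array and the mean ± SD in black. Fabp4 and Lyve1 ZA-00031K11 form tight groups at -1.34 and -0.74, Lyve1 ZA-00029L07 spreads from -2.73 to 0.39, Cd53 lies above 0 on its 5 measured arrays and both Aif1 probes straddle 0.

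The members' source wells for Fabp4, Lyve1 and C1qa did not resemble their neighbours as closely. Fabp4 had the lowest mean of 376 tested probes on its plate, and its 3 tested neighbours lay between -0.38 and 0.11. The broad Lyve1 probe was also the lowest of its 376 plate probes, with neighbours between -0.28 and 0.06, and the tight Lyve1 probe was number 10 of 363, with neighbours between -0.19 and 0.60. C1qa was number 22 of 365 from the lowest, with neighbours between -0.25 and -0.04. The plate column of Fabp4 had a median of -0.13, against 0.02 over all other wells of its plate. For Lyve1 these medians were -0.07 against -0.01 (ZA-00029L07) and 0.15 against 0.18 (ZA-00031K11), and for C1qa 0.04 against 0.04. For Aif1 they were -0.19 against -0.08 (ZX-00121C20) and -0.18 against 0.02 (ZX-00122O23). The part of plate position in these ratios was not tested.

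All probes were fitted together with limma against a ratio of 0, with Benjamini-Hochberg adjustment and a threshold of 0.05. Of all 21247 tested probes 5.49% passed, 3.53% under 0 and 1.96% above 0. Of the members' 7 probes 4 passed, Fabp4, Lyve1 ZA-00031K11 and C1qa under 0 and Cd53 above 0. Nothing is read from that count, because this contrast chose the members. Without centring the passing probes over the table were split as 849 above and 409 under 0, against 416 above and 750 under 0 with it, since the array medians stood at -0.007 to 0.198 and the median probe mean moved from 0.03 to 0.13.

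**Figure D2:**
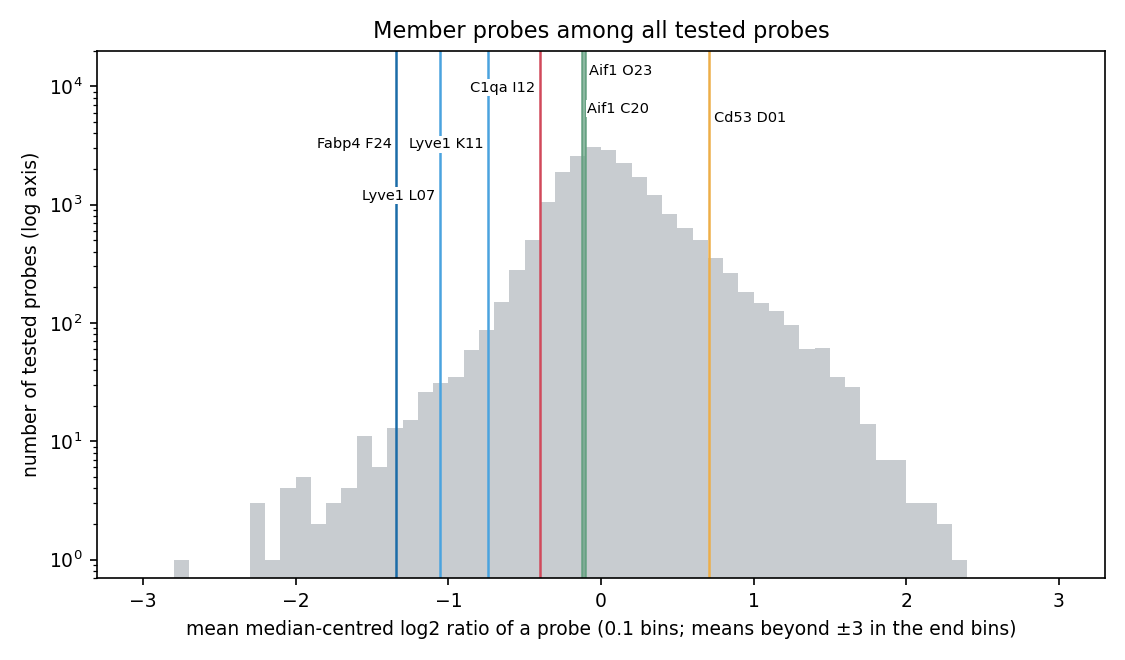
Number of tested probes (vertical log axis) in each 0.1-wide bin of mean median-centred log2 ratio (horizontal axis), with a line at each member probe, labelled with its gene and well. Fabp4 and both Lyve1 probes lie in the thin lower tail, Cd53 lies on the upper shoulder and both Aif1 probes lie near the peak.

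Other genes of the vessel wall were examined from 3 lists, of blood endothelium, of lymphatic and sinusoid endothelium, and of pericytes and smooth muscle. Of 37 measured genes, 6 fell and 1 rose, 16.2% and 2.7%, against 5.00% and 3.25% of all 10818 tested genes with a probe past the threshold on that side. Shares of all tested genes were computed for that first fit only, so the counts from other fits have none beside them. Without centring 5 fell and 2 rose, with Nr2f2 lost and Nrp2 gained above 0. In that fit 409 probes of the whole table passed under 0 and 849 above 0. With 1 value per gene, the mean of its probes, 3 fell (Esm1, Ramp2 and Rgs5) and 2 rose (Hhex and Sox17). Clec14a, Nrp1 and Nr2f2 then no longer passed. With the array set as a term 5 fell and 0 rose in limma, with 16 genes at an unadjusted p under 0.05 in either direction. Without array 1, 3, 4, 5 or 6, limma called 0 of these genes, with 14 to 16 at an unadjusted p under 0.05. Without array 2 it called 6, and on arrays 3 to 6 alone 0, with 17 at an unadjusted p under 0.05. The passing probes named below kept their sign in each of these fits.

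Blood endothelium gave 5 genes that fell and 1 that rose of 24 measured. That was 20.8% under 0 and 4.2% above 0, against 5.00% and 3.25% of all tested genes. Ramp2, which carries the adrenomedullin receptor to the surface of endothelial cells, had a lowest value of -1.14 and a highest of -0.57 at probe ZX-00131H09. Its mean was -0.75 ± 0.21 (n = 6; limma adjusted p 0.0219), a second probe was at -0.55 and also passed, and the third, with all its values quotients of small whole numbers, was at 0.04. Clec14a, a C-type lectin of endothelium, was at -0.58 ± 0.21 (adjusted p 0.0305, limma) and -0.39, both past the threshold, and at -0.19 at its remaining probe. Esm1, a proteoglycan secreted by endothelial tip cells, ranged from -0.61 to -0.28 over the arrays, with a mean of -0.47 ± 0.13 (adjusted p 0.0302, limma).

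Nrp1, a co-receptor for VEGF and semaphorins, was at -0.83 ± 0.37 at the probe that passed (limma adjusted p 0.0344), with -1.44 on array 2 and -0.34 on array 3 as its extremes. Its 3 other probes were at -0.38, 0.07 and 0.11, so its probes disagreed. Nr2f2, the nuclear receptor that sets venous identity, was at -0.50 ± 0.23 (limma adjusted p 0.0412) at one probe and -0.16 at the other. Hhex, a homeobox factor of early endothelium and of endoderm, was at 1.30 ± 0.55 (n = 5; limma adjusted p 0.0368), with all 5 values quotients of small whole numbers. Nr2f2 did not pass without centring, without array 2 or with the array set as a term, and Hhex did not pass with that term. Both were named after their values were seen.

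The other endothelial genes did not pass. Sox7 and Sox17, SoxF factors of endothelium, were at -0.32 for Sox7 and at 0.47 and 0.35 for Sox17. The VEGF receptor gene Flt1 was between -0.07 and 0.08 at its 3 probes. Endomucin (Emcn) was at -0.05, endoglin (Eng) at -0.09, Egfl7 at -0.19, Esam at -0.28 and Myct1 at -0.25 ± 0.07. The list's 35 probes had a median of -0.11, between -0.18 and -0.12 on the arrays, against 0.03 over all probes, and of -0.004 without centring. Defining genes such as Pecam1, Cdh5, Kdr, Tek and Tie1 had no tested probe under 1 symbol and were not analysed here.

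None of the 7 measured genes of lymphatic and sinusoid endothelium, which Lyve1 also marks, passed. Of all tested genes 5.00% passed under 0 and 3.25% above 0, so a list this short may hold none. All 9 of the list's probes had means above 0, as had 53.7% of all tested probes, but 7 of the 9 had at least 1 array under 0. The median of the probe means was 0.39, and the list's median ran from 0.02 to 0.53 over the arrays. Prox1, the factor that sets lymphatic identity, was at 1.12 ± 1.16 (n = 4) and 0.59 ± 1.06 (n = 5), so wide that 0 lay within 1 SD of each. Nrp2, the co-receptor for VEGFC, was at 0.50 ± 0.35 (limma adjusted p 0.0778) and 0.05, and Itga9, an integrin of lymphatic valves, was at 0.28 ± 0.21. Prox1 is also made by pancreatic epithelium at this stage. Among vessel wall cells, Rgs5, a marker of pericytes, fell at one probe to -0.51 ± 0.11 (limma adjusted p 0.0251), with the other at -0.02. It was 1 of 6 measured genes of the pericyte and smooth muscle list, 16.7% under 0 against 5.00% of all tested genes. Acta2, smooth muscle actin, was at -0.41 and 0.09, neither past the threshold.

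Signals that guide vessels and blood cells had 2 of 7 measured genes past the threshold, both under 0. That was 28.6%, against 5.00% of all tested genes on that side. Cxcl12, the chemokine that draws endothelial and blood cells carrying Cxcr4, was at -0.77 ± 0.18 and -0.69 ± 0.22 at 2 probes (limma adjusted p 0.0199 and 0.0259), and at -0.14 at its remaining probe. S1pr1, the sphingosine phosphate receptor that stabilises vessels and lets lymphocytes leave tissue, was at -0.51 ± 0.17 (limma adjusted p 0.0316), with arrays between -0.80 and -0.32. Cxcr4 itself was at 1.13 ± 1.34 and did not pass. Il34, a ligand of the macrophage receptor Csf1r, was at 0.22 ± 0.33.

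**Figure D3:**
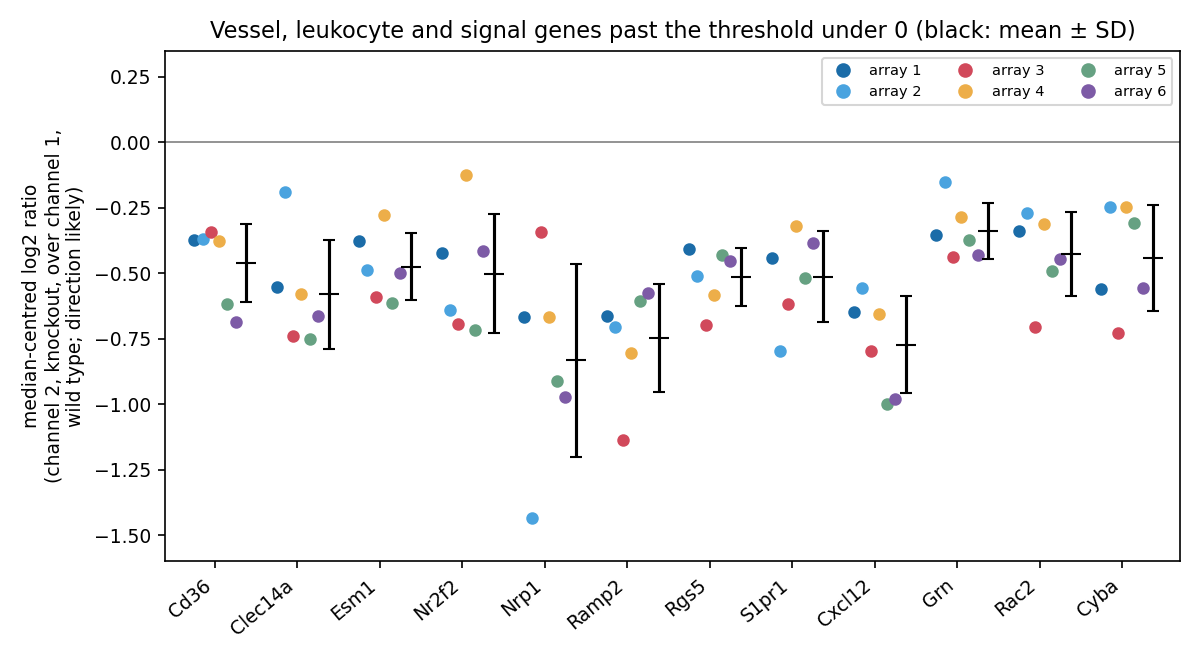
Median-centred log2 ratio (vertical axis, no unit) of 1 passing probe for each of 12 genes (horizontal axis), with a coloured point per array and the mean ± SD in black. The genes shown all passed under 0 and all their points lie under 0, from -0.13 for Nr2f2 on array 4 down to -1.44 for Nrp1 on array 2.

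Beside Fabp4, lists of lipid genes were examined. None of 5 measured members of its protein family passed. With 5.00% under 0 and 3.25% above 0 of all tested genes passing, so short a list may hold none, and nothing is read from it. Fabp5, the epidermal carrier that overlaps with Fabp4 in endothelium and macrophages, was at -0.01 and -0.02 at its 2 probes, Fabp7 of brain was at 0.09 and 0.05, and Fabp2 of intestine was at -0.24 ± 0.27 (limma adjusted p 0.208). The family's median of 0.05 became -0.01 with quantile normalization. Of 10 measured genes of lipid uptake and fat cells, 1 fell and 1 rose. That was 10.0% on each side, against 5.00% under 0 and 3.25% above 0 of all tested genes. Cd36, the fatty acid and scavenger receptor of capillaries and macrophages, read -0.37, -0.37, -0.34, -0.38, -0.62 and -0.69 on arrays 1 to 6. All were under 0, with a mean of -0.46 ± 0.15 (limma adjusted p 0.0341).

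Angptl4, a secreted inhibitor of lipoprotein lipase, rose to 0.60 ± 0.30 at one probe (limma adjusted p 0.0425) and was at 0.24 at the other. The lipase itself, Lpl, was at -0.06 and 0.07, its capillary anchor Gpihbp1 at 0.14 ± 0.67, and the fat cell hormone adiponectin (Adipoq) at -0.01 ± 0.29 (n = 5). The other fat cell genes with a tested probe did not pass either.

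Leukocyte genes were examined from lists of macrophages, of leukocytes at large and of other blood lineages, without the members. Of 20 measured genes, 3 fell and 0 rose in the limma fit, 15.0% under 0 against 5.00% of all tested genes, and 9 had a probe at an unadjusted p under 0.05 in either direction. Without array 1, 3, 4, 5 or 6 limma called 0 of them, with 6 to 8 at an unadjusted p under 0.05, without array 2 it called 2, and without centring it called 1. With the array set as a term limma called 0, with 8 at an unadjusted p under 0.05, and adjusted p-values of 0.0516 for Rac2, 0.057 for Grn and 0.064 for Cyba.

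Grn, the lysosomal growth factor precursor progranulin, was the macrophage gene that fell, at -0.34 ± 0.11 (limma adjusted p 0.0435), with its other probe at -0.33. It was 1 of 9 measured, 11.1% under 0 against 5.00% of all tested genes, and it did not pass without centring. Csf1r, the receptor that macrophages need, was at -0.13 ± 1.50, with all its values quotients of small whole numbers, so it is uninformative here. Cd68, a lysosomal protein of macrophages, was at -0.06 ± 0.26, Ms4a7 was at 0.04 and 0.0015, Slc40a1, the iron exporter, was at -0.04, and Dab2 was at -0.07 and -0.06. The list's median of -0.06 became 0.04 without centring. Adgre1, Cx3cr1, Mrc1 and Spi1 had no tested probe under 1 symbol and were not analysed here.

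Cd53 also stood apart in sign from most other leukocyte probes. Over the 3 leukocyte lists, 20 of 29 probes had means under 0, while 53.7% of all tested probes had means above 0. Under 0 were 8 of 13 macrophage probes and 1 of 3 of other blood lineages. Of the 13 probes of the list of leukocytes at large, 11 had means under 0, with a median of -0.29 that stayed under 0 under each scaling. Rac2, a GTPase of blood cells, fell at one probe to -0.43 ± 0.16 (limma adjusted p 0.0386), with the other at -0.29. Cyba, a subunit of the NADPH oxidase, fell at one probe to -0.44 ± 0.20 (limma adjusted p 0.045), with the other at -0.38, and did not pass without centring. Coro1a was at -0.27, Arhgdib at -0.34 and -0.68, and Plek at -0.24 and -0.20, none past the threshold. Lsp1 was at 0.17 and 0.0021. Whether Cd53 differed from these genes was not tested.

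Of 3 other blood lineage genes none passed, against 5.00% under 0 and 3.25% above 0 of all tested genes. Mpo, the neutrophil peroxidase, was nearest at -0.30 ± 0.10 (limma adjusted p 0.0529). Red cell genes, which mark blood left in the tissue, gave 1 of 8 past the threshold. That was 12.5% above 0, against 3.25% of all tested genes. These 8 genes had 56 probes, so their share by gene is not comparable. By probe, 1 of 56 passed above 0, against 1.96% of all tested probes. Hba-a1 passed at 1 of 17 probes, at 0.40 ± 0.19 (limma adjusted p 0.049), and the list's 56 probes had a median of 0.02, between -0.13 and 0.28 on the arrays. The part of blood content in the members' ratios was not tested.

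**Figure D4:**
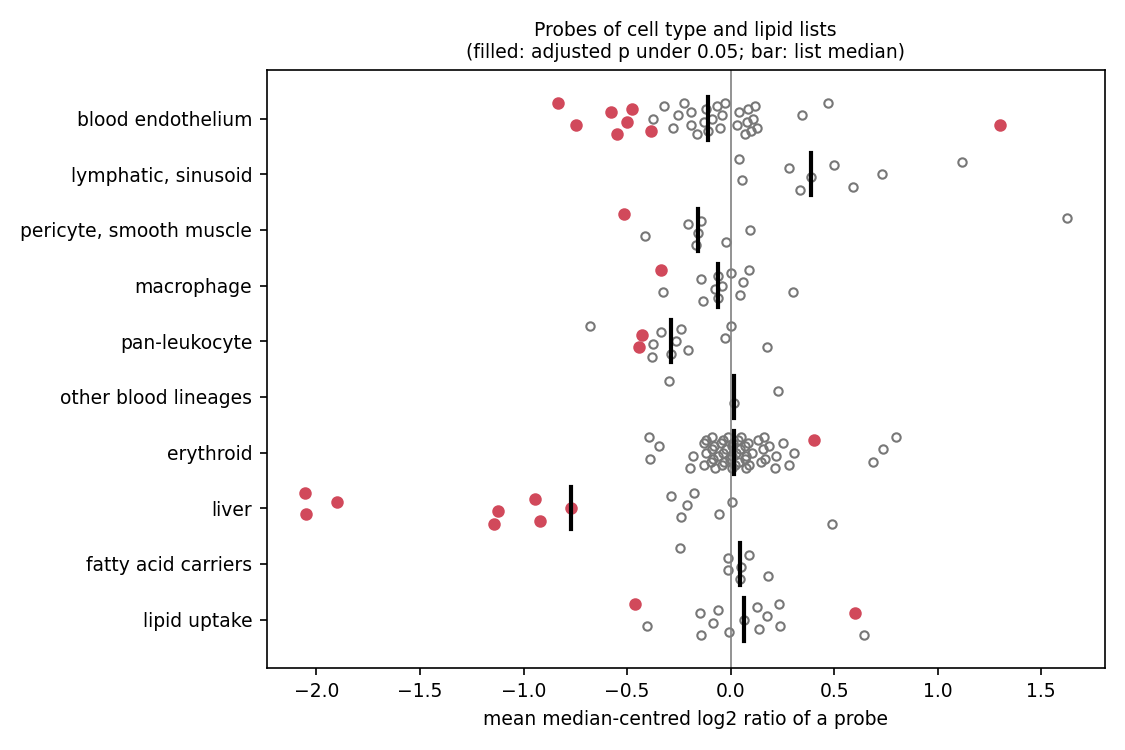
Mean median-centred log2 ratio (horizontal axis) of each probe in 10 gene lists (rows), without the members, with filled points past a limma adjusted p of 0.05 and a black bar at the list median. Passing endothelial and leukocyte probes lie under 0 except Hhex, all 9 lymphatic and sinusoid probes lie above 0, and the liver probes reach -2.06.

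Liver markers moved in the direction of Fabp4, Lyve1 and C1qa, and fetal liver holds Lyve1-bearing sinusoids and macrophages. Of 8 measured liver genes 5 fell and none rose, 62.5% under 0 against 5.00% of all tested genes. Afp reached -2.06 ± 0.22 (limma adjusted p 0.00141), with its other probes at -2.05, -1.90 and 0.01. Fgg was at -1.14 ± 0.31, Fgb at -1.12 ± 0.26 and Ambp at -0.77 ± 0.10. Vtn passed at one probe, at -0.94 ± 0.31, with the other at -0.06. Ttr, at -0.21 and -0.18, and Rbp4, at -0.24 and 0.49, did not pass. The liver list's 15 probes had a median of -0.77, between -1.01 and -0.49 on the arrays, with 13 of them under 0. Albumin (Alb) was at -0.29 ± 0.12 (limma adjusted p 0.0622). Clec4g, from the list of lymphatic and sinusoid endothelium, was at 0.34 ± 0.50 and did not pass. The part of liver tissue in the members' ratios was not tested.

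The protein families of the other members had 1 passing gene between them. Of 13 measured tetraspanins related to Cd53, 1 fell, 7.7% against 5.00% of all tested genes. It was Tspan13, which fell at 1 of 3 probes, to -0.41 ± 0.17 (limma adjusted p 0.0435), and did not pass without centring. Cd9 was at -0.32 ± 0.18 and did not pass. Of 7 measured genes of C1q and the classical complement pathway none passed, against 5.00% under 0 and 3.25% above 0 of all tested genes. The nearest was Cd59a, which shields cells from complement, at -0.38 ± 0.22 (limma adjusted p 0.0632), with its 3 other probes between -0.15 and 0.14. C1ra, the protease bound to C1q, was at 0.23 ± 0.11, and C3ar1, a complement receptor, was at 0.30 ± 0.26.

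Of 5 measured calcium- and actin-binding genes like Aif1 none passed, against 5.00% under 0 and 3.25% above 0 of all tested genes. Aif1l, its closest relative, was at 0.24 ± 0.13 (limma adjusted p 0.101) and Actn1 was at -0.29 ± 0.12 (limma adjusted p 0.0597). Of 5 measured genes of hyaluronan, the ligand of Lyve1, none passed, against the same shares of all tested genes. Cemip2 had the smallest p, at 0.17 ± 0.20 (limma adjusted p 0.263), the matrix partner versican (Vcan) was at -0.02 and 0.0041, and the receptor Hmmr was at 0.04.

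Probes that resembled a member most over the 6 arrays were found by the root mean square distance of their array values, among 15554 named probes of other genes measured on all arrays. Nearest to Fabp4 were Mt2, a metallothionein, at a distance of 0.133, then Bnip3, which acts in the removal of mitochondria, at 0.224, Akr1c19, an aldo-keto reductase, at 0.276, Serpina1e, a secreted liver antiprotease, at 0.290 and Pik3ap1, an adaptor of immune cells, at 0.351. These had means between -1.28 and -1.05. Nearest to the tight Lyve1 probe were Cdkn1a, a cell cycle inhibitor, at 0.0786, Ambp, a plasma protein of liver, at 0.102, Pde4b at 0.105, Bex4 at 0.112 and Neat1 at 0.116. Another Neat1 probe stood at 0.85. None of these 10 genes is in the lists of vessel or leukocyte genes, which hold only 37 and 20 of the 10818 tested genes. The lowest probe means of those lists were -0.83 and -0.68, so none of their probes could lie as near to Fabp4. That reason does not cover the tight Lyve1 probe, as Ramp2 ZX-00131H09 had a mean of -0.75, close to its own. With so few genes listed, nothing is read from the absence of vessel or leukocyte genes.

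For C1qa the nearest were Pla2g1b, Gpx7, Rbm39, Zfp932 and Calml4, at 0.0456 to 0.0758. Of these, other probes of Gpx7 and Rbm39 were at 0.21 and 1.05 and those of Pla2g1b reached 0.26. For Aif1 ZX-00121C20 they were Cox10, Capzb, Mier2, Pmch and Chordc1, at 0.0421 to 0.061, and for Aif1 ZX-00122O23 they were 1700093K21Rik, Dhx34, Nek8, Mrnip and Zfp661, at 0.0371 to 0.0548. Small distances are common near 0, where most probes lie. The arrays may share their RNA, and likeness over them is given as a description only.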

How the data were processed

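The authors' deposited table gives log2 ratios for 21888 probes on 6 arrays of 2 channels. The base is read from its ceiling, log2 of 100000. The sources used here do not name the background correction, normalization, dyes or scanner. Intensities were not used, so signal over background is unknown, and precision is limited by having 6 arrays.

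The ceiling, found at 40 to 257 probes per array, was set to missing. Arrays were median-centred, and 21247 probes with values on at least 4 arrays were tested with limma 3.58.1 (lmFit, eBayes, intercept only, two-sided) in R 4.3.3, and p-values were adjusted over every tested probe by Benjamini-Hochberg. The fit was tested on simulated data with independent noise on each array, so that test does not cover arrays that share RNA. The platform annotation gave 1 symbol to 18388 probes, several to 66 and none to 3434. Symbols were updated by Entrez ID for 17786. Members kept the annotation's symbol. Tables used Python 3.11.15 and pandas 2.3.3, and figures matplotlib 3.10.9.

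The members, 18 gene lists and tests were chosen with earlier results of these data known. Named were all member probes, up to 4 passing genes per list (smallest p first) or the gene with the smallest p, and the 5 nearest probes of each member measured on all arrays. Other genes were named after their values were seen. Within array sets, Spearman's rho across probes was 0.52 for arrays 1 and 2 and 0.44 to 0.58 for arrays 3 to 6, against 0.06 to 0.32 between them. Alternatives were other scalings, filters, array sets, weights, the ceiling kept, mostly quotient probes left out, 1 value per gene and each array left out.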

Additional observations from a re-analysis of the deposited data

Results flagged for a closer look

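Among named probes and list medians, some had 1 array whose gap to the nearest other was large for the whole range, which chance alone gives in about 1 of 20. None of the 7 member probes, none of the 20 list medians and 4 of 27 named list probes had one. At the Clec14a probe ZA-00030D16, array 2 read -0.19 while the rest lay from -0.75 to -0.55. Array 2 was also the one apart for Actn1, at -0.056 with the rest from -0.38 to -0.32, and for the Fgb probe ZX-00135H16, at -0.60 with the rest from -1.28 to -1.08. For the Sparc probe ZA-00026J22 it was array 1, at -0.15 with the rest from -0.36 to -0.30. The gap in each case lay on the side nearer 0.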

How the results depend on the processing

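Each member probe kept its sign in every alternative in which it was measured, and moved by less than its SD except in 3 cases. Fabp4 went to -1.53 with quantile normalization, Cd53 to 3.35 with the ceiling kept as a value, and Lyve1 ZA-00031K11 to -0.88 as the mean of both Lyve1 probes. Counts of calls moved more, and the cause was not tested. Passing probes over the table numbered 1786 with scaling, 2402 with array weights, 695 with the array set as a term, 11 (6392 at an unadjusted limma p under 0.05) on arrays 3 to 6 and 0 (2960) on arrays 1 and 2, and 8 to 849 with an array left out. Passing vascular genes numbered 11 with weights, 0 on arrays 3 to 6 (17) and on arrays 1 and 2 (6), and 0 to 6 with an array left out. Passing leukocyte genes numbered 1 without centring, 5 with scaling, with quantile normalization and with probes on all 6 arrays, 7 with weights, 0 with the array set as a term (8), on arrays 3 to 6 (9) and on arrays 1 and 2 (2), and 0 to 2 with an array left out. Of the 20 named passing list probes, none changed sign under any alternative, 15 passed without array 2 and 1 or 2 without another array. No paired analysis was possible because all samples form 1 group and each ratio already pairs both RNAs.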

Other observations

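Genes of the tissue around the vessels were examined from 3 further lists. The shares past the threshold under 0 were 14.3% for mesenchyme and 16.7% for pancreatic epithelium, against 5.00% of all tested genes. The vascular and leukocyte lists had similar shares, 16.2% and 15.0%. Of 7 measured mesenchyme genes, Sparc, a collagen-binding matrix protein, fell at one probe to -0.31 ± 0.08 (SD, n = 6; limma adjusted p 0.0453), with the other at -0.30. It did not pass without centring. Of 6 measured genes of pancreatic epithelium, Cpa1, a digestive carboxypeptidase, fell at all 3 probes, to -0.50, -0.48 and -0.41. Neither Ptf1a, a factor for acinar fate, at 0.20 ± 0.11, nor Sox9, a progenitor factor, at -0.48 ± 0.39, passed. Of 2 measured genes of the early spleen, which grows beside the pancreas, neither passed, and Tcf21 was at -0.13 ± 0.18 (limma adjusted p 0.336). The medians of these 3 lists changed sign without centring.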
